A study of Arabidopsis thaliana with 50 samples.

Results

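Transcripts of the 4 DNA demethylase genes of Arabidopsis, ROS1 (AT2G36490), DME (AT5G04560), DML2 (AT3G10010) and DML3 (AT4G34060), were followed in 50 RNA-seq libraries of whole seedlings. The genes were taken by their identifiers from the 37338 genes counted, and all 4 were counted in every group, although ROS1 was at 3 counts or fewer in each library of 2 groups. DNA demethylases are DNA glycosylases that cut 5-methylcytosine out of DNA, after which base excision repair puts an unmethylated cytosine in its place. DME is best known for its work in the companion cells of the gametes, where it sets up parental imprinting, whereas ROS1, DML2 and DML3 act in vegetative tissues and keep genes and the edges of transposons free of methylation. The ROS1 promoter is known to carry a short element whose methylation promotes ROS1 transcription, so that ROS1 acts as a sensor of methylation activity, and ROS1 transcripts are known to be low in several mutants that lose DNA methylation.

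All plants were of the Columbia-0 ecotype, 8 days old and grown on plates with sucrose under long days. Col-0, *med12* (the T-DNA allele *cct-2*) and *med13* (the T-DNA allele *gct-2*) had no transgene. The transgene SDC:GFP, in which the promoter of the methylated gene SDC drives green fluorescent protein, was carried by every plant of the SDC:GFP wild type, *morc1* (the T-DNA allele *morc1-4*), *morc1/med12*, *morc1/med13*, *ddc* and *ddc/med13*. The triple mutant *ddc* lacks the DNA methyltransferases DRM1, DRM2 and CMT3. The transgene entered the other lines from *ddc*: the SDC:GFP wild type descends from a cross of *ddc* to Col-0, and *morc1* from a cross to the T-DNA mutant. In *morc1/med13* the allele was *gct-2*, whereas *ddc/med13* and *morc1/med12* each carried 1 CRISPR allele made in those lines. MED12 and MED13 are subunits of the kinase module of Mediator, the complex that links transcription factors with RNA polymerase II, and MORC1 is an ATPase that silences methylated genes. There were 4 libraries of each of these genotypes, except 3 of *morc1/med12* and 7 of *morc1*, of which replicates 1 to 4 were the control for *morc1/med13* and replicates 5 to 7 the control for *morc1/med12*. In a separate experiment Col-0 and *med12* seedlings were kept for 24 h in the dark and collected in the dark or after 15 min of light, with 3 libraries of each kind.

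Libraries held between 2767761 and 6786822 counts, and the 3 groups compared first, SDC:GFP wild type, *ddc* and *ddc/med13*, lay at the shallow end with medians of 3457075.5, 3157382.5 and 3458947. Markers of leaves and root hairs were present in every library and the pollen marker VGD1 did not exceed 1.263 CPM in any. CPM is the usual depth-adjusted unit of read counts, a gene's counts over the library total in units of 1e+06, here with the total scaled by the TMM method. Seed storage transcripts (CRU1, CRU3 and SESA1 together) stayed at or below 7.062 CPM in Col-0, SDC:GFP wild type and *ddc*, but reached 288 in *med12*, 475.6 in *med13*, 292.3 in *morc1/med12* and 764.3 in *morc1/med13*. The mutated genes followed the labels where the alleles lower the transcript: MED12 fell in *med12* from a mean of 165.8 to 62.2 CPM (log2 fold change -1.40, adjusted p = 2.5e-10), and in *ddc* DRM2 fell by 0.86 and CMT3 by 1.90 on the log2 scale (adjusted p = 5e-05 and 3.8e-10). MORC1 fell by 0.57 in *morc1* (adjusted p = 0.00014). MED13 was not called lower in any mutant of MED13, with means of 123.5 CPM in *med13* against 109.2 in Col-0, 125.2 in *ddc/med13* against 97.8 in *ddc* and 108.2 in *morc1/med13* against 113.6 in *morc1* (adjusted p = 0.29), and MED12 was at 147.1 CPM in *morc1/med12* against 130 in *morc1*. The level of the mutated gene therefore does not check these 4 labels. The labels do not say how far replicates were separate cultures, and the p-values measure the spread between these libraries, which may be technical. In the 4 groups of the dark and light experiment every pair of replicates differed by less than the sampling noise of counts, with chi-square values per degree of freedom between 0.585 and 0.793, and in the SDC:GFP wild type they lay between 0.867 and 0.975. Long-day Col-0 and *morc1* replicates 1 to 4 lay close to these, at 0.909 to 1.32 and 0.942 to 1.33. Pairs ranged more widely in the remaining groups, for example at 1.17 to 4.48 in *ddc* and 1.5 to 5.77 in *morc1/med13*. Duplicate reads had been removed before counting, which compresses high counts and can lower these values, and its part was not tested. Each library was kept as a sample, but these values cannot show whether the libraries were separate cultures. If the libraries of each dark or light group are counted as 1 sample, the fold changes of that experiment stand without a test. If those of the SDC:GFP wild type are counted as 1 sample, the p-values of its comparisons do not hold.

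ROS1 lies on chromosome 2 at chr2:15307907-15314807 on the minus strand, DME at chr5:1309099-1318520 on the plus strand, DML2 at chr3:3081735-3088550 on the minus strand and DML3 at chr4:16313366-16319426 on the plus strand (TAIR10.1). All are protein-coding, with 4827, 7191, 4393 and 4050 bases of exon. The 250 bases just upstream of the annotated starts of ROS1 and DME are shown because the ROS1 promoter is the part of this family known to respond to methylation. CG and CNG sites, where N is any base, are in capitals, and since both motifs read the same on either strand each site was counted once. The symmetric contexts of methylation in plants are CG and CHG, where H is A, C or T. CNG also takes in CCG and CGG, which are not symmetric CHG sites. A CG inside CCG was counted under both motifs.
ROS1, chr2:15314808-15315057, minus strand: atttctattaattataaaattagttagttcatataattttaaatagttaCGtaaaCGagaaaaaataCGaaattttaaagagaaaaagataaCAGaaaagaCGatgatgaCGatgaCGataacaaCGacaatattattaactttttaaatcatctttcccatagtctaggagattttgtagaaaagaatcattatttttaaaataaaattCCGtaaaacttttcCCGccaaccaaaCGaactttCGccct
DME, chr5:1308849-1309098, plus strand: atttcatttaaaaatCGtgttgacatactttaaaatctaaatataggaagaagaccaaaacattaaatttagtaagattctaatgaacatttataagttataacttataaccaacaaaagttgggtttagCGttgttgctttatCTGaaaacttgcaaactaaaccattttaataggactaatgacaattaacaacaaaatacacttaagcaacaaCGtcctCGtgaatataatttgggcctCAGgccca
The ROS1 window held 11 CG sites, a number that 9.2% of the 27443 windows of this length upstream of protein-coding genes reached or passed, with a median of 5. The windows of DME, DML2 and DML3 held 4, 2 and 4 CG sites. CNG sites numbered 3 in the ROS1 window and 2, 1 and 4 in those of DME, DML2 and DML3, against a median of 5. At least 1 CG was present in 96.0% of all windows and at least 1 CNG in 97.7%. CHH sites, where plants also carry methylation, were not counted, and whether the ROS1 window holds the known element was not checked. A match to these letters is a description of the sequence and no measure of methylation, which was not analysed here.

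Loss of the 3 methyltransferases left almost no ROS1 transcripts. The 4 SDC:GFP wild-type libraries had 276, 297, 342 and 258 ROS1 counts, whereas the 4 *ddc* libraries had 1, 2, 0 and 0. In CPM these were 90.1, 89.6, 101.9 and 77.0 in the wild type against 0.388, 0.621, 0 and 0 in *ddc*, and no library of 1 group came near the other. The 3 counts summed over *ddc* correspond to 0.258 CPM, with an exact 95% Poisson interval of 0.0531 to 0.753. Against the 1173 counts of the wild type the ratio was 348-fold, with an exact interval of 119 to 1690 that covers counting error only. ROS1 passed the test across all features (edgeR quasi-likelihood test, adjusted p = 2e-11 by the Benjamini-Hochberg method), a comparison in which 55.2% of the 19536 features tested passed at an adjusted p under 0.05 in either direction. With Col-0 in place of the SDC:GFP wild type, where the counts were 538, 633, 635 and 493, the ratio was 364-fold (interval 124 to 1760).

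The other 3 demethylase genes kept their transcripts in *ddc*, and 2 of the 4 members passed the test. DME was at 151.5, 155.4, 164.7 and 147.8 CPM in the SDC:GFP wild type and at 186.1, 192.0, 219.3 and 199.2 CPM in *ddc*, with no overlap between the groups. Its log2 fold change was 0.35 ± 0.05 (SE, n = 4 and 4), or 1.27-fold, with an adjusted p of 5.8e-05. DML2 was at means of 35.2 and 36.6 CPM (log2 fold change 0.04, 95% interval -0.15 to 0.23, adjusted p = 0.73), and the libraries overlapped. DML3, the lowest of the family, was at 15.8 and 13.2 CPM (log2 fold change -0.28, interval -0.66 to 0.10, adjusted p = 0.2). The light-regulated gene HY5 and the asparagine synthetase gene ASN1, which is induced in the dark, summed to 73.46 to 83.32 CPM in the SDC:GFP wild type, 409.4 to 503 CPM in *ddc*, 277.9 to 368.6 CPM in *ddc/med13* and 247.8 to 268.2 CPM in Col-0. In *ddc* ASN1 rose from 44.6 to 438.6 CPM and HY5 fell from 32.5 to 18.9 CPM, and their part in the rise of DME was not tested. The choice of wild type decided the values of DME, DML2 and DML3: against Col-0, where DME had a mean of 206 CPM, DML2 of 56.4 and DML3 of 6.57, the log2 fold changes in *ddc* were -0.02 for DME (adjusted p = 0.73), -0.60 for DML2 (adjusted p = 3.7e-05) and 1.03 for DML3 (adjusted p = 0.00057).

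**Figure D1:**
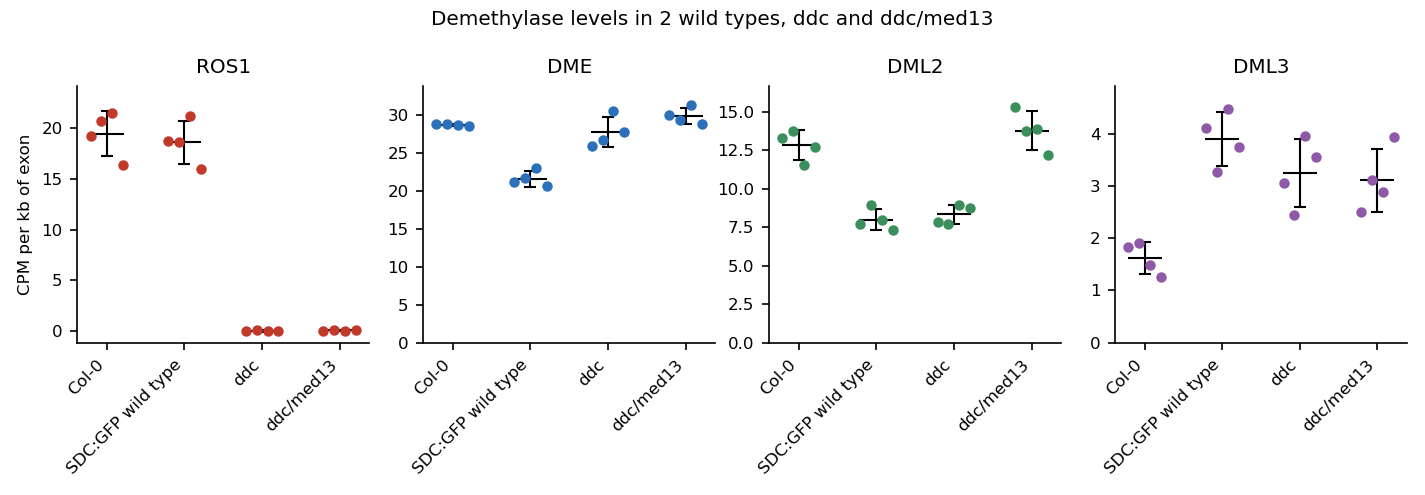
Level of each demethylase gene in CPM per kb of exon (vertical axes, each panel with its own scale) in the 4 libraries of Col-0, SDC:GFP wild type, *ddc* and *ddc/med13*. Coloured points are libraries, horizontal bars the mean and whiskers 1 SD; ROS1 lies near 0 in all 8 libraries of *ddc* and *ddc/med13*, DML2 rises between *ddc* and *ddc/med13*, and DME, DML2 and DML3 differ between the 2 wild types.

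The 2 wild types were themselves apart for every member but ROS1. Between SDC:GFP wild type and Col-0, 64.8% of the 19947 features tested passed, and 3 of the 4 members were among them. DME was 0.40 and DML2 0.67 lower on the log2 scale in the SDC:GFP wild type (adjusted p = 1.7e-09 and 4.9e-08), and DML3 was 2.43-fold higher (adjusted p = 3.9e-07), without overlap of the libraries. ROS1 had means of 89.7 and 93.7 CPM (log2 fold change -0.05, interval -0.21 to 0.11, adjusted p = 0.6). The leaf markers LHCB1.3 and RBCS1A together were at 412.9 to 452.9 CPM in the SDC:GFP wild type and at 226.1 to 246.9 CPM in Col-0, and their part in these differences was not tested. The transgene, the descent from *ddc* and the set of libraries cannot be told apart here.

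Removing MED13 from *ddc* did not bring ROS1 back, but DML2 rose. ROS1 counts were 1, 3, 0 and 2 in the 4 libraries of *ddc/med13*, which summed to 0.454 CPM (exact Poisson interval 0.167 to 0.988). These counts were 198-fold below the SDC:GFP wild type (interval 90.5 to 540, adjusted p = 3.4e-11). Between *ddc/med13* and *ddc* both groups were at 3 counts or fewer in each library, a depth at which no fold can be given. DML2 was at 34.6, 33.9, 39.4 and 38.6 CPM in *ddc* and at 67.4, 60.4, 61.1 and 53.4 CPM in *ddc/med13*, so every double-mutant library was above every *ddc* library. The change was 0.74 ± 0.09 on the log2 scale, or 1.67-fold (adjusted p = 1.3e-05), and it stayed between 0.69 and 0.79 in every alternative run. DME was at a mean of 199.1 CPM in *ddc* and 214.3 in *ddc/med13* (log2 fold change 0.12, interval 0.01 to 0.24, adjusted p = 0.077), and passed with the replicate number as a block (adjusted p = 0.03) or without *ddc* replicate 3 (0.17, adjusted p = 0.023). DML3 was at 13.2 and 12.6 CPM (interval of the log2 fold change -0.42 to 0.36). Among the 3 members for which a fold can be given 1 passed, beside 39.3% of the features tested.

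Against the SDC:GFP wild type, 3 of the 4 members passed in *ddc/med13*, beside 48.6% of the features. ROS1 fell as given above, DME rose by 0.47 ± 0.05 on the log2 scale (1.38-fold, adjusted p = 3.3e-06) and DML2 by 0.78 ± 0.09 (1.72-fold, adjusted p = 2.4e-06), whereas DML3 was at a log2 fold change of -0.31 (adjusted p = 0.16). The rises of DME and DML2 were tied to that control, since against Col-0 their log2 fold changes were 0.07 (adjusted p = 0.22) and 0.12 (adjusted p = 0.23), while DML3 turned to a rise of 0.97 (adjusted p = 8e-04). Markers of dividing cells summed to 118.3 to 222.1 CPM in *ddc* and 259.5 to 319.4 CPM in *ddc/med13*, and the seed markers to 0.67 to 6.84 and 3.70 to 189.6 CPM. The part of either in the rise of DML2 was not tested. In bulk seedlings a change in the number of cells of a type and a change in RNA per cell cannot be told apart.

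Per kb of exon, DME was the most abundant of the family in Col-0, at 45.9% of the summed level, with ROS1 at 31.0%, DML2 at 20.5% and DML3 at 2.58%. In the SDC:GFP wild type the shares were 41.5%, 35.6%, 15.4% and 7.52% in the same order. In *ddc* DME made up 70.4% ± 1.26 (SD, n = 4) and ROS1 0.142% ± 0.172. The summed level of the family was 52 ± 3.64 CPM per kb in the SDC:GFP wild type, 39.3 ± 3.09 in *ddc* and 46.8 ± 1.45 in *ddc/med13*. The family total was highest in *med13*, at 80 ± 6.43, against 62.5 ± 2.63 in Col-0.

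**Figure D2:**
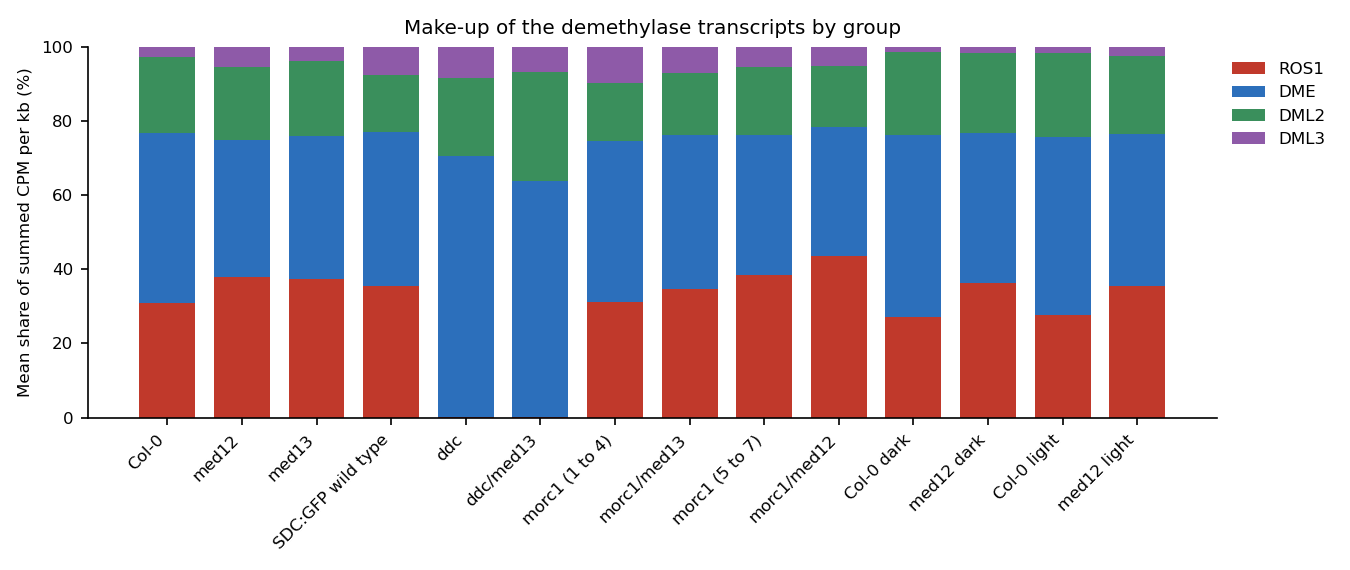
Mean share of each demethylase gene in the summed CPM per kb of exon (vertical axis, percent) for the 14 groups on the horizontal axis, with 3 or 4 libraries each. ROS1 makes up 27.1% to 43.5% outside *ddc* and *ddc/med13* and under 1% within them, where DME makes up 70.4% and 63.7%.

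Both genes next to ROS1 were also lower in *ddc* than in the SDC:GFP wild type, but kept part of their transcripts. In this comparison 55.2% of all features passed. AT2G36480, which lies on the same strand and starts 97 bases beyond the 3′ end of ROS1, was at 56.0 CPM in the SDC:GFP wild type and 46.6 in *ddc* (log2 fold change -0.29, adjusted p = 0.0057). AT2G36500, which starts 3065 bases upstream of ROS1, was at 7.17 and 3.06 CPM (log2 fold change -1.26, adjusted p = 0.0039), and at 7.13 CPM in *ddc/med13*. The neighbours of DME rose and fell on either side, AT5G04550 by 0.25 and AT5G04590 by -0.24 (adjusted p = 0.00074 and 0.00063). AT4G34050, upstream of DML3, was at a log2 fold change of -0.34 in *ddc* (adjusted p = 4.6e-05), and AT3G10000 beside DML2 was too low to test. The other 2 neighbours, AT3G10015 and AT4G08885, had no counts in these groups. In Col-0, AT5G04590 and AT4G34050 were at means of 195 and 106 CPM, below their 251 and 146 CPM in *ddc*, so their direction depended on the control. AT2G36480, AT2G36500 and AT5G04550 were at 52.8, 7.14 and 125 CPM in Col-0. The neighbours were not tested in *ddc* against Col-0.

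Genes that work with the demethylases moved in both directions in *ddc*. Of 15 genes of the demethylation pathway, 9 rose and 4 fell, in a comparison in which 55.2% of all features passed (median log2 fold change 0.27, beside -0.01 over all features). The control matters here too. In the SDC:GFP wild type against Col-0, 3 of the 15 were higher and 7 lower (median -0.30, all features -0.02), beside 64.8% of features that passed. The pathway genes were not tested in *ddc* or *ddc/med13* against Col-0. Among the factors that bring ROS1 to its targets, the histone acetyltransferase gene IDM1 rose from 55.8 to 73.9 CPM (log2 fold change 0.39, adjusted p = 0.00022), MBD7, which binds methylated DNA, rose by 0.43 (adjusted p = 0.0023) and IDM3, an alpha-crystallin domain protein, fell from 8.07 to 2.49 CPM (-1.70, adjusted p = 0.00088). The repair genes split as well. XRCC1, a scaffold of base excision repair, rose from 40.3 to 97.6 CPM (1.26, adjusted p = 2.6e-08) and the endonuclease gene APE2 from 31.1 to 73.9 CPM (1.23, adjusted p = 6.6e-08). ZDP, the phosphatase that trims DNA ends after the cut, fell from 51.0 to 25.8 CPM (adjusted p = 2.5e-06), the endonuclease gene APE1L by 0.73 (adjusted p = 0.00034) and the DNA ligase gene LIG1 by 0.72 (adjusted p = 0.00049). ROS3, MET18, AE7, SSRP1 and SPT16 were the other 5 that rose, by 0.18 to 0.47, and IDM2 and ARP did not pass.

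In *ddc/med13* against the SDC:GFP wild type 9 of the 15 pathway genes rose and 2 fell, beside 48.6% of all features that passed (median 0.23, all features 0.01). Set directly against *ddc*, 3 rose and 4 fell in *ddc/med13*, beside 39.3% of all features (median 0.03, all features 0), XRCC1 from 97.6 to 55.2 CPM (-0.80, adjusted p = 7.6e-06) and APE2 from 73.9 to 45.05 CPM (-0.69, adjusted p = 4.8e-05) among those that fell. Of 4 methylation genes that were not mutated 3 were lower in *ddc*, beside 55.2% of all features that passed. Markers of dividing cells were lower there too, at 239.2 to 247.2 CPM in the SDC:GFP wild type and 118.3 to 222.1 CPM in *ddc*, with 3 of 6 called lower (median -0.51), and their part was not tested. MET1, which maintains CG methylation, fell from 132.8 to 68.9 CPM (-0.96, adjusted p = 1.2e-06), CMT2 by 0.59 (adjusted p = 1.6e-05) and the chromatin remodeller gene DDM1 from 48.5 to 20.2 CPM (-1.29, adjusted p = 2.1e-07), whereas KYP did not pass. Between SDC:GFP wild type and Col-0, 3 of these 4 genes were higher and 1 lower (median 0.21, all features -0.02), beside 64.8% of features. They were not tested in *ddc* against Col-0. All 4 were higher in *ddc/med13* than in *ddc*, MET1 by 0.65, CMT2 by 0.45, DDM1 by 0.94 and KYP by 0.32, with adjusted p-values of 0.00019, 0.00061, 2.6e-05 and 0.01. All 6 dividing-cell markers were higher in the same comparison (median 0.65), and their part was not tested.

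Of 8 loci whose expression is known to be set by methylation or by its removal, 3 had enough counts for the test in these groups. In *ddc* against the SDC:GFP wild type 1 rose and 2 fell, beside 55.2% of all features that passed. SDC, the gene whose silencing defines the reporter, rose from 4.14 to 360.3 CPM in *ddc* (log2 fold change 6.39, adjusted p = 8.4e-13). EPF2, a peptide gene of stomatal development that becomes methylated in plants without ROS1, fell from 8.502 to 5.414 CPM (-0.65, adjusted p = 0.015). Methylation of EPF2 was not analysed, and its part in this fall was not tested. IBM1, a histone demethylase gene with a methylated intron, fell from 53.4 to 34.2 CPM (-0.65, adjusted p = 9.5e-06). FWA, DOGL4, MEA, FIS2 and PHE1 were at or below 1.99 CPM in group mean in the 3 groups.

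Against Col-0, loss of MED12 or MED13 raised ROS1 and DML3. ROS1 was at 92.7, 99.9, 103.2 and 79.0 CPM in Col-0, at 128.7, 123.2, 141.4 and 134.3 CPM in *med12* and at 151.2, 165.4, 138.2 and 123.6 CPM in *med13*. Every library of either mutant was above every Col-0 library. The log2 fold change was 0.51 ± 0.09 in *med12* (1.42-fold, adjusted p = 7e-04) and 0.64 ± 0.09 in *med13* (1.56-fold, adjusted p = 0.00011). DML3 counts were low, at 43, 49, 37 and 32 in Col-0, 86, 98, 114 and 88 in *med12* and 79, 97, 92 and 62 in *med13*, and again did not overlap. DML3 rose 2.35-fold in *med12* (log2 fold change 1.24 ± 0.17, adjusted p = 7.1e-05) and 1.91-fold in *med13* (0.94 ± 0.17, adjusted p = 0.00072). Across the alternatives the log2 fold changes of ROS1 stayed between 0.43 and 0.70 and those of DML3 between 0.83 and 1.33 in these 2 comparisons, all past the threshold.

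DME and DML2 moved less. DME was at 206.4, 207.0, 205.5 and 205.3 CPM in Col-0, at 180.8 to 199.6 CPM in *med12* and at 216.8 to 225.8 CPM in *med13*, below Col-0 in every *med12* library and above it in every *med13* library. The log2 fold changes were -0.09 ± 0.03 (adjusted p = 0.038) and 0.12 ± 0.03 (adjusted p = 0.0079). The call in *med12* was lost in most alternatives, among them without Col-0 replicate 1, 2, 3 or 4, without *med12* replicate 1 or 2 and without *med13* replicate 3 or 4, where the values lay between -0.09 and -0.06 and the adjusted p reached 0.1. It was also lost with the replicate number as a block (adjusted p = 0.052). DML2 was at a mean of 56.4 CPM in Col-0, 62.5 in *med12* (log2 fold change 0.16, interval -0.05 to 0.37, adjusted p = 0.22) and 71.5 in *med13* (0.36 ± 0.10, adjusted p = 0.0089). In all, 3 of the 4 members passed in *med12*, beside 38.6% of 20788 features, and 4 of 4 in *med13*, beside 39.5%. Set directly against each other, *med13* was above *med12* for DME (0.21 ± 0.03, adjusted p = 0.00042), while ROS1, DML2 and DML3 differed by 0.14, 0.20 and -0.30 with adjusted p of 0.27, 0.14 and 0.17, beside 26.4% of features past the threshold.

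The seed storage markers were at 1.14 to 7.06 CPM in Col-0, 31.1 to 288 CPM in *med12* and 29.6 to 475.6 CPM in *med13*, and the flower markers AG and SEP3 together at 10.7 to 23.1, 4.30 to 6.03 and 3.15 to 4.05 CPM. Their part in the changes of the demethylase genes was not tested. Of the 15 pathway genes, 1 rose and 5 fell in *med12* (median -0.06, all features 0) and 2 rose and 3 fell in *med13* (median -0.01, all features 0.01). These are 6 and 5 of 15 genes, where 38.6% and 39.5% of all features passed. XRCC1 fell in both, from 66.7 CPM to 46.8 (adjusted p = 1.4e-05) and 54.2 (adjusted p = 0.001), and the DNA lyase gene ARP rose in both, from 32.0 CPM to 37.7 (adjusted p = 0.0095) and 36.5 (adjusted p = 0.026).

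**Figure D3:**
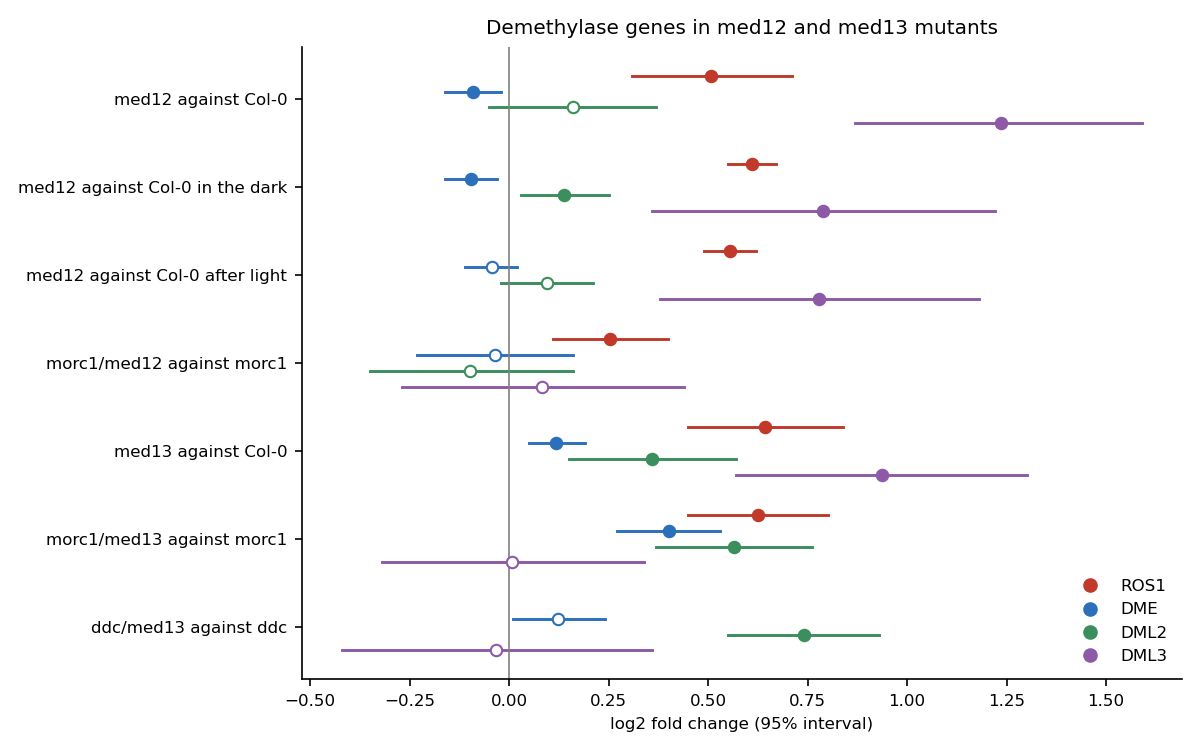
Log2 fold change of each demethylase gene (horizontal axis) with its 95% interval in 7 comparisons of a *med12* or *med13* mutant with its own control (vertical axis). Filled points passed at an adjusted p under 0.05 and open points did not; ROS1 is left out of *ddc/med13* against *ddc*, where no fold can be given. ROS1 lies above 0 in the other 6 comparisons, and DML3 passed in the 4 with Col-0 as the control.

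In the *morc1* background the same question gave a different set. ROS1 was at 66.2, 77.9, 78.7 and 74.6 CPM in *morc1* replicates 1 to 4 and at 119.3, 115.2, 124.9 and 98.9 CPM in *morc1/med13*, without overlap. It rose by 0.62 ± 0.08 on the log2 scale (1.54-fold, adjusted p = 0.00024). DME rose from 154.3 to 203.7 CPM (0.40 ± 0.06, adjusted p = 0.00056) and DML2 from 34.0 to 50.3 CPM (0.57 ± 0.09, adjusted p = 0.00063), again without overlap. DML3, which rose 1.91-fold in *med13*, was at 19.3 CPM in both groups (log2 fold change 0.01, interval -0.32 to 0.34). Hence 3 of 4 members passed, beside 42.4% of 19201 features. Of the pathway genes 8 of 15 rose and 2 fell in *morc1/med13*, beside 42.4% of all features (median 0.20, all features 0), among them IDM1 from 55.2 to 75.1 CPM (adjusted p = 0.0013) and, falling, ZDP from 50.3 to 30.9 CPM (adjusted p = 0.00091). Seed markers were at 11.4 to 105.8 CPM in *morc1* and 79.4 to 764.3 CPM in *morc1/med13*. HY5 and ASN1 together were at 45.21 to 53.94 CPM in *morc1* and 205.5 to 451.2 CPM in *morc1/med13*, with ASN1 higher and HY5 lower (both called). The part of these genes in the rises was not tested.

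Loss of MED12 in *morc1* moved ROS1 alone among the members. ROS1 was at 113.8, 100.8 and 118.8 CPM in *morc1* replicates 5 to 7 and at 128.4, 134.8 and 137.9 CPM in *morc1/med12*, a rise of 0.25 ± 0.06 on the log2 scale (1.19-fold, adjusted p = 0.032). The call was lost without *morc1/med12* replicate 2 (0.25, adjusted p = 0.094) or 3 (0.23, adjusted p = 0.1) and without *morc1* replicate 6 (0.19, adjusted p = 0.1). DME was at 163 and 160.3 CPM, DML2 at 48.6 and 45.8 CPM and DML3 at 12.5 and 13.4 CPM, with adjusted p-values of 0.84, 0.64 and 0.79. Thus 1 of 4 members passed, beside 11.5% of 20168 features, and 0 of the 15 pathway genes did with edgeR or with DESeq2, with 5 at an unadjusted p under 0.05.

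ROS1 was a little lower in *morc1* than in the SDC:GFP wild type, but only with one of the 2 sets of *morc1* libraries. With replicates 1 to 4 it was at a mean of 74.3 against 89.7 CPM, with overlapping libraries, a fall of 0.28 ± 0.07 on the log2 scale (adjusted p = 0.011). With replicates 5 to 7 it was at 111.1 CPM and the log2 fold change was 0.34 (adjusted p = 0.0029). DML2 turned as well, from -0.05 (adjusted p = 0.8) to 0.50 (adjusted p = 0.002). The fall of ROS1 was also lost without SDC:GFP wild type replicate 3 (-0.21, adjusted p = 0.058). DME and DML3 did not pass (log2 fold changes -0.01 and 0.27), so that 1 of 4 members passed, beside 11.7% of 19273 features. Of the 14 pathway genes tested, 0 passed with edgeR, with DESeq2 or at an unadjusted p under 0.05, and SDC rose from 4.14 to 42.9 CPM (adjusted p = 1.5e-10).

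Effects of the Mediator mutations were compared between backgrounds with the test of the difference itself. For DML3, the effect of *med13* was 0.89 lower in *morc1* than in the wild type on the log2 scale (-0.89 ± 0.24, adjusted p = 0.013) and 0.95 lower in *ddc* than in the wild type (-0.95 ± 0.27, adjusted p = 0.019). The effect of *med12* on DML3 was 1.14 lower in *morc1* (-1.14 ± 0.23, adjusted p = 0.0036). The control level of DML3 also differed between these backgrounds, at 6.57 CPM in Col-0, 19.3 and 12.5 in the 2 sets of *morc1* and 13.2 in *ddc*. For DME, the effect of *med13* was larger in *morc1* than in the wild type by 0.32 ± 0.06 (adjusted p = 0.0012) and smaller in *ddc* than in *morc1* by 0.29 (-0.29 ± 0.08, adjusted p = 0.014). The control level of DME differed as well, at 206 CPM in Col-0, 154.3 in *morc1* replicates 1 to 4 and 199.1 in *ddc*. The matching *med13* mutants were at 221.1, 203.7 and 214.3 CPM, and the SDC:GFP wild type was at 154.9 CPM. For ROS1, the effect of *med13* differed between *morc1* and the wild type by 0.03 (interval -0.28 to 0.33, adjusted p = 0.92), and that of *med12* by -0.24 (interval -0.48 to -0.01, adjusted p = 0.17). For DML2, the effect of *med13* in *ddc* was 0.40 above that in the wild type, with an adjusted p of 0.055 that fell to 0.024 to 0.048 without Col-0 replicate 3, *med13* replicate 1 or 2 or *ddc/med13* replicate 4. The backgrounds also differ in the transgene, in the library set and, except for *med13* in *morc1* and in the wild type, in the allele, and these cannot be told apart from the background.

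The shares of all features that passed were 23% for *med13* in *ddc* against the wild type, where 1 of the 3 members with a fold did, 35.7% for *ddc* against *morc1*, where 1 of 3 did, 23.2% for *med13* in *morc1* against the wild type, where 2 of 4 did, and 13.5% for *med12* in *morc1* against the wild type, where 1 of 4 did. These comparisons use the same *med13*, *ddc* and control libraries more than once, and are given side by side as separate values.

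**Figure D4:**
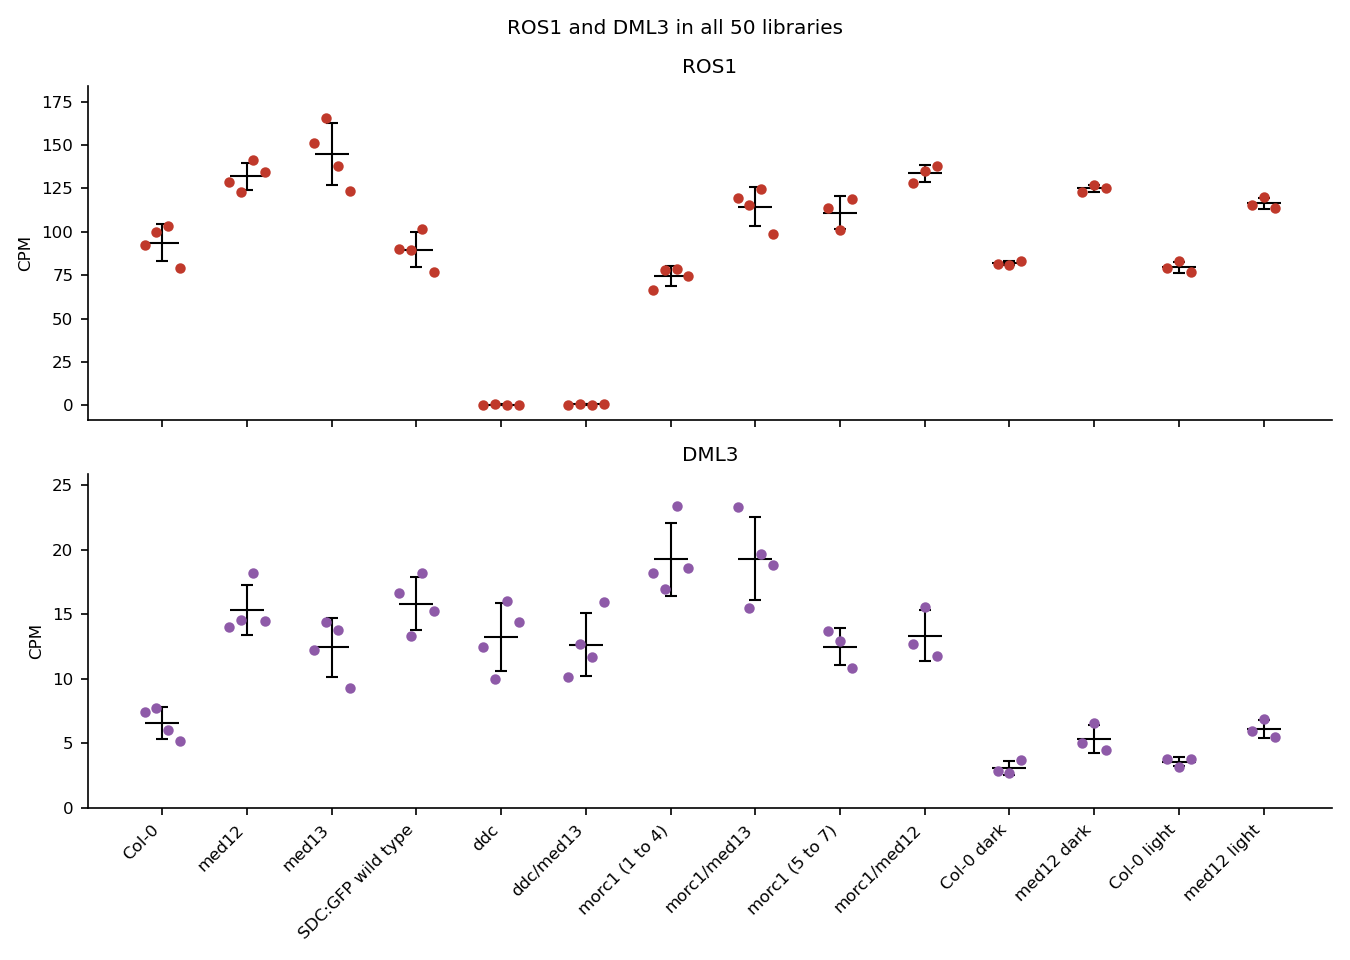
ROS1 (upper panel) and DML3 (lower panel) in CPM (vertical axes) for all 50 libraries, in the 14 groups named on the horizontal axis. Points are libraries, horizontal bars the mean and whiskers 1 SD; numbers after *morc1* are the replicates. ROS1 is near 0 in *ddc* and *ddc/med13* and at 66.2 to 165.4 CPM elsewhere, whereas DML3 is lowest in Col-0 in the dark (3.06 CPM) and highest in *morc1/med13* (19.3 CPM).

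A short pulse of light changed the demethylase genes little. After 15 min of light, DME in Col-0 was at 203.4, 210.8 and 203.1 CPM against 226.8, 218.5 and 218.0 CPM in the dark (log2 fold change -0.11 ± 0.03, adjusted p = 0.0068), a call that was lost without dark Col-0 replicate 1 (-0.08, adjusted p = 0.12). ROS1, DML2 and DML3 did not pass, so that 1 of 4 members did, beside 12.7% of 21202 features. In *med12* the log2 fold changes on light were -0.10 for ROS1, -0.06 for DME, -0.10 for DML2 and 0.20 for DML3, with adjusted p between 0.14 and 0.67, and 0 of 4 passed in the edgeR test, beside 6.75% of features. At an unadjusted p under 0.05 ROS1 alone would pass, and DESeq2 called 0 of the 4. No member differed in its light response between *med12* and Col-0 (0 of 4 with edgeR, with DESeq2 and at an unadjusted p under 0.05, beside 1.04% of features), with intervals of -0.19 to 0.07 for ROS1 and -0.04 to 0.14 for DME.

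The *med12* effect on ROS1 and DML3 was present in these seedlings too. In the dark ROS1 was at 81.3, 81.0 and 83.1 CPM in Col-0 and at 122.8, 127.0 and 125.5 CPM in *med12* (log2 fold change 0.61 ± 0.03, adjusted p = 5.9e-21), and after light at 78.8, 82.9 and 76.8 CPM against 115.2, 120.1 and 113.9 CPM (0.55 ± 0.03, adjusted p = 4.6e-19). DML3 had 19, 17 and 24 counts in dark Col-0 and 35, 44 and 32 in dark *med12*, a rise of 1.73-fold (0.79 ± 0.21, adjusted p = 0.0022), and rose 1.71-fold after light (0.78 ± 0.20, adjusted p = 0.0013). DME and DML2 changed by -0.10 and 0.14 in the dark (adjusted p = 0.0071 and 0.038). The DME call was lost without dark Col-0 replicate 1 (-0.07, adjusted p = 0.078) and the DML2 call without dark Col-0 replicate 2 or 3 or dark *med12* replicate 1 or 3 (0.11 to 0.14, adjusted p 0.06 to 0.18), and neither passed after light. In all, 4 of 4 members passed in the dark, beside 43% of features, and 2 of 4 after light, beside 43.3%. Seed markers were at 0.457 to 1.74 CPM in dark Col-0 and 129.3 to 247.8 CPM in dark *med12*, and their part was not tested. Of the 15 pathway genes 5 rose and 5 fell in *med12* in the dark (median 0.02, all features 0), and 5 rose and 2 fell after light (median 0.14, all features 0), beside the same 43% and 43.3% of features. The *med12* effect did not pass as different between dark and long days for any member (0 of 4 with edgeR, with DESeq2 and at an unadjusted p under 0.05, beside 23.5% of 21330 features), with intervals of -0.09 to 0.30 for ROS1 and -1.03 to 0.15 for DML3.

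Between the dark and the long-day Col-0 libraries, DML3 was at 2.84, 2.69 and 3.66 CPM after 24 h of dark against 7.41, 7.73, 6.02 and 5.13 CPM in long days, a fall of 1.09 ± 0.21 on the log2 scale (adjusted p = 3e-04). DME was higher in the dark by 0.11 (adjusted p = 0.0099) and ROS1 lower, at 81.8 against 93.7 CPM (-0.19, adjusted p = 0.033). The ROS1 call was lost without any 1 of dark Col-0 replicates 1 to 3 or Col-0 replicates 1 to 3, with values between -0.26 and -0.14 over all replicates left out and an adjusted p of up to 0.12. DML2 did not pass (adjusted p = 0.12), so that 3 of 4 members did, beside 56.2% of features. The dark treatment and the set of libraries cannot be told apart.

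Ordered by mean CPM over the 14 groups, ROS1 ran from 144.6 in *med13*, 133.7 in *morc1/med12*, 131.9 in *med12* and 125.1 in dark *med12* through 116.4 in *med12* after light, 114.5 in *morc1/med13* and 111.1 in *morc1* replicates 5 to 7 to 93.7 in Col-0, 89.7 in SDC:GFP wild type, 81.8 and 79.5 in dark and light Col-0 and 74.3 in *morc1* replicates 1 to 4, and ended with *ddc/med13* and *ddc*. Of the 13 pairs of neighbours in this order 11 had overlapping libraries, and the gap between *morc1* and *ddc/med13* was 1 of the 2 without. DME ran from 221.2 CPM in *med13* to 154.3 in *morc1* replicates 1 to 4, a range of less than 1.5-fold in which 12 of 13 neighbours overlapped. DML2 ran from 71.5 in *med13* to 34.0 in *morc1* replicates 1 to 4, with 11 of 13 overlapping. DML3 ran from 19.3 in *morc1/med13* to 3.06 in dark Col-0, with 11 of 13 overlapping, and its step from 12.4 in *med13* to 6.57 in Col-0 set the SDC:GFP lines, *med12* and *med13* apart from the rest.

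Over the 14 group means on the log2 scale, DME and DML2 had a Pearson correlation of 0.75, DME and DML3 of -0.54 and DML2 and DML3 of -0.56, whereas ROS1 was at -0.23, 0.24 and -0.15 with DME, DML2 and DML3. ROS1 was at means of 0.25 CPM in *ddc* and 0.44 in *ddc/med13* and at 74.3 CPM or more elsewhere. All its correlations, also those with other genes below, therefore weigh *ddc* and *ddc/med13* heavily. The groups share controls and library sets, so the correlations are descriptions without a test. Among 16674 genes with a mean of at least 10 CPM, those most like ROS1 over the groups were AT2G02400 (r = 0.966), AT1G57620 (0.946) and AT5G27490 (0.926). They were at 31.5, 37.2 and 21.2 CPM in Col-0 and at 20.3, 10.6 and 12.1 CPM in *ddc*, and none fell to the floor that ROS1 reached. The genes most like DME were AT1G01770 (0.969), AT1G69360 (0.963) and AT5G01980 (0.961), those most like DML2 were ACR10 (0.952), AT5G18950 (0.950) and AT5G25930 (0.950), and those most like DML3 were AT2G32560 (0.970), PIF7 (0.965), which encodes a bHLH transcription factor that binds phytochrome, and AT1G29700 (0.959).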

How the data were processed

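RNA was measured in 50 libraries of whole seedlings, and groups and replicate numbers came from the labels. The authors made stranded mRNA libraries, aligned single-end reads to TAIR10 with STAR, removed duplicates with Picard, ran HTSeq 0.6.1 in reverse-stranded mode on Araport11 annotation (genes and TEs), and deposited raw counts per feature without normalization. Keeping 1 read per start position and strand compresses high counts. The demethylase genes reached at most 0.231 counts per exonic base in a library, and the loss of reads at this coverage was not estimated. In 44 files, rows of reads without a feature (3.03% to 5.81%) were left out.

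Counts were analysed in R 4.3.3 with edgeR 4.0.16: filterByExpr by group, TMM, glmQLFit and glmQLFTest, and Benjamini-Hochberg adjustment over all features tested. A feature passed at an adjusted p under 0.05 in either direction. Each comparison used the groups it concerns and their controls. SE and intervals follow the p used. Groups at 3 counts or fewer per library on both sides got no fold, and exact intervals cover counting error only. Exon lengths, positions and sequences are from RefSeq TAIR10.1, whose annotation matched 37050 of 37338 genes. The test recovered large changes on counts simulated from its own model. That does not show how well it finds smaller changes such as most of those given here. Replicate numbers were not used as pairs in the main tests. Deviations of libraries with the same number had correlations of -0.353 to 0.223. Libraries with different numbers were not compared in this way, so these values cannot show whether the numbers pair libraries. Alternatives were DESeq2 1.42.0, RLE, no filter, other sets of libraries, genes without TEs, a replicate block, raw totals and each library left out. Named genes are the members, the genes mutated, their neighbours, the 3 genes most alike to each, and those of the pathway, methylation and methylation-set lists that passed. The members and lists were chosen with earlier results of these data known.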

Additional observations from a re-analysis of the deposited data

Results flagged for a closer look

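Among 30 sets of 4 libraries examined (each member in each group of 4, without ROS1 in *ddc* and *ddc/med13*), 2 held a library far from the other 3, about as many as chance gives at 1 in 20. DML2 in *morc1* replicate 3 was at 29.5 CPM, below the 35.2 to 35.9 CPM of the other *morc1* libraries of that set, and DML3 in *med12* replicate 3 was at 18.2 CPM, above the 14.01 to 14.53 CPM of the others.

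Of 22 differences of an effect between backgrounds or conditions, 5 passed the test of the difference. Of all features, 23% passed for *med13* in *ddc* against the wild type and 35.7% for *med13* in *ddc* against *morc1*. In *morc1* against the wild type 23.2% passed for *med13* and 13.5% for *med12*. For *med12* in dark against long days 23.5% passed, and for the light response 1.04%. The *med13* effect on DML3 was lower in *ddc* than in the wild type by 0.95 (-0.95) and lower in *morc1* than in the wild type by 0.89 (-0.89), and the *med12* effect on DML3 was lower in *morc1* than in the wild type by 1.14 (-1.14). The *med13* effect on DME was 0.32 larger in *morc1* than in the wild type and smaller in *ddc* than in *morc1* (-0.29). All 5 kept their side of the threshold in every alternative run.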

How the results depend on the processing

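The fall of ROS1 in *ddc* and *ddc/med13*, its rise in *med12*, *med13* and *morc1/med13*, the rise of DML3 in *med12* and *med13* and the rise of DML2 in *ddc/med13* over *ddc* kept direction and threshold in every alternative. With Col-0 as the wild type, log2 fold changes in *ddc* were -0.02 for DME, -0.60 for DML2 and 1.03 for DML3, and in *ddc/med13* 0.07 for DME, 0.12 for DML2 and 0.97 for DML3. With *morc1* replicates 5 to 7, ROS1 was at 0.34 and DML2 at 0.50 against the SDC:GFP wild type. Calls lost with DESeq2 were DME on light in Col-0 (-0.11), DME in *med12* (-0.09) and in dark *med12* (-0.09) and DML2 in dark *med12* (0.14). With all 50 libraries in 1 fit those 4 were lost (-0.10, -0.10, -0.09 and 0.14), as were DME in dark Col-0 (0.11) and in *med13* (0.10), ROS1 in dark Col-0 (-0.19) and ROS1 in *morc1* (-0.27), and DML2 passed for *med13* against *med12* (0.20) and for the *med13* effect in *ddc* against the wild type (0.37). Without the filter DME in *med12* (-0.09) was lost and that DML2 difference passed (0.41). With only the groups compared DME in *med12* (-0.09) was lost and DML2 in dark Col-0 (0.14) passed. With the replicate block DME in *med12* (-0.09) was lost, DME in *ddc/med13* against *ddc* (0.12) and the DML2 difference (0.40) passed, and no other call changed; *morc1/med12* and its controls share no replicate number, so no paired analysis was possible there. The causes were not tested.

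Leaving out 1 library at a time gave ranges of -0.12 to -0.08 for DME on light in Col-0, 0.09 to 0.17 for DME in *ddc/med13* against *ddc*, -0.11 to -0.06 for DME in *med12*, -0.11 to -0.07 for DME and 0.11 to 0.16 for DML2 in dark *med12*, 0.31 to 0.46 for the DML2 difference, -0.26 to -0.14 for ROS1 in dark Col-0, -0.35 to -0.21 for ROS1 in *morc1* and 0.19 to 0.31 for ROS1 in *morc1/med12*. RLE factors and genes without TEs changed no call. Counts of features called moved over 1.5 times for light in Col-0 (2690 to 1266 with DESeq2 and 841 in 1 fit), light in *med12* (1431 to 642 and 314), the light difference (221 to 60 and 5, and 141 without dark *med12* replicate 1), *morc1* (2250 to 1065 and 1031, and 9824 with replicates 5 to 7) and *morc1/med12* (2323 to 1451, 1374 and 1353 without its replicates 1, 2 and 3 and 1081 without *morc1* replicate 6). CPM of raw totals moved 13 of 56 levels by over 1 SD. Depth limits ROS1 in *ddc*, where 3 counts are 1.04 CPM.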
